A study of Mus musculus with 2 samples.

Results

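Integrins are the receptors through which cells hold on to the extracellular matrix, and each is a pair of an alpha and a beta subunit in which the alpha subunit largely decides the ligand. The genes described here are 10 alpha subunits of receptors that bind collagens, laminins, fibronectin-type ligands carrying the RGD motif, or tenascin and VCAM-1. They were listed by name out of 32287 features and were read across cell classes gated on marker genes that include no integrin. Itga1, Itga2, Itga10 and Itga11 encode the collagen-binding subunits. Itga6 and Itga7 bind laminins, Itga5 and Itga8 bind RGD-carrying ligands such as fibronectin and nephronectin, and Itga4 and Itga9 form the small alpha4 family, whose ligands include VCAM-1, tenascin-C and forms of fibronectin.

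In nerve, Schwann cells rest on a laminin-rich basal lamina, and laminin receptors are known for their part in axon sorting and myelination. In muscle, alpha7 beta1 is the well-known laminin receptor of muscle cells, alpha8 beta1 is known from smooth muscle, and alpha4 beta1 is known for the arrest of blood leukocytes on vessels. All of the 10 subunits pair with beta1, while alpha6 also pairs with beta4 and alpha4 also pairs with beta7.

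The labels describe 2 droplet libraries of hind limb muscle (tibialis anterior and gastrocnemius), the live GFP+ and GFP- fractions sorted from S100GFPtg animals, titled WT, 7 days after sciatic nerve injury by crush. The animals are given as male and 2 months old, although the methods of the study name an older age range for mice with nerve crush. The transgene places GFP under the S100B promoter. In the GFP+ library S100b itself stood at 23.8 CPM (molecules per 1000000 of a class) in Schwann-like, 15.6 CPM in fibroblast-like and 1.19 CPM in myeloid-like barcodes. Both libraries carry the transgene and the injury, and neither is from uninjured muscle. The methods speak of pooled males and the series description of a single animal, so the number of animals behind a library is not certain. Expression in the GFP- fraction was not analysed here. The GFP+ library is therefore 1 sample with no replicate, no p-value is given, and every interval is a 95% interval that covers counting error only.

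The GFP+ matrix held 36400 barcodes and 170648616 unique molecular identifiers (UMIs, single counted RNA molecules), of which 8701 barcodes had at least 5000 UMIs and passed the filters on genes and mitochondrial UMIs. Their median depth was 11624 UMIs. Of these, 8188 barcodes (94.1%) fell into 7 classes: 80 Schwann-like, 38 endothelial-like, 75 mural-like, 456 tenocyte-like, 1348 fibroblast-like, 210 satellite cell-like and 5981 myeloid-like. A further 311 barcodes held markers of more than 1 class and were left out, and 84 of the 8701 barcodes (0.965%) also occur in the GFP- library. A level is given as CPM, the UMIs of a gene per 1000000 UMIs of the class. The UMIs are 3′ tags, so each gene is compared across classes and not with another gene.

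The class names were checked with genes outside the gates, picked after the data were seen. Summed over 4 Schwann genes (S100b, Ngfr, Gap43 and Sox2), the Schwann-like barcodes held 1399 CPM, and the other classes between 2.44 and 52.3 CPM. The Schwann-like barcodes also held 1916 CPM of 4 matrix genes of mesenchymal cells (Col1a1, Col3a1, Dcn and Lum), 7.52% of the level in fibroblast-like barcodes, and 356 CPM of 5 myeloid genes, 2.37% of the level in myeloid-like barcodes. In mural-like barcodes the myeloid genes stood at 2534 CPM, or 16.9% of the myeloid-like level. The part of RNA from other cells in a level was not tested. Ccl21a and Mmrn1, used elsewhere as markers of lymphatic endothelium, led the endothelial-like barcodes, of which 7 of 38 held a UMI of Mmrn1.

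All 10 identifiers matched GENCODE M39 (GRCm39), and the positions are from that annotation, since the matrix itself carries none. Itga1 (ENSMUSG00000042284, chr13:115089632-115238677, minus strand) and Itga2 (ENSMUSG00000015533, chr13:114969617-115068636, minus strand) are neighbours with a gap of 21 kb. Itga10 (ENSMUSG00000090210) lies at chr3:96552900-96571835 and Itga11 (ENSMUSG00000032243) at chr9:62585108-62691617, both on the plus strand. Itga6 (ENSMUSG00000027111) lies at chr2:71575960-71689757 and Itga7 (ENSMUSG00000025348) at chr10:128769621-128794169, both on the plus strand. Itga5 (ENSMUSG00000000555) lies at chr15:103252713-103275270 and Itga8 (ENSMUSG00000026768) at chr2:12110900-12307214, both on the minus strand. Itga4 (ENSMUSG00000027009) lies at chr2:79085660-79163467 and Itga9 (ENSMUSG00000039115) at chr9:118435722-118730072, both on the plus strand. The annotation places Pelo and Gm49395 on the same strand within Itga1, and Gm42957 across the start of Itga10, and 4 long noncoding genes on the same strand within the first part of Itga6, so reads there may be shared between genes.

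What the 10 subunits have in common is a short inner tail that begins, just inside the membrane, with a glycine and a pair of phenylalanines, the stretch through which alpha subunits are known to clasp the beta subunit. The coding bases of that stretch and of what follows are shown from the canonical GENCODE M39 transcripts, 5′ to 3′, with the 9 bases of the shared stretch in capitals, because they show how alike the tails start and how soon they part.
Itga1: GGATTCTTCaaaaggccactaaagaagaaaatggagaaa
Itga2: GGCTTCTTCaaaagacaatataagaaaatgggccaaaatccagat
Itga10: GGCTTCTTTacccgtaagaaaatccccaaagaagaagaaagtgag
Itga11: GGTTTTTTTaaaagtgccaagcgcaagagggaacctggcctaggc
Itga6: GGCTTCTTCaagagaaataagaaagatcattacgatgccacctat
Itga7: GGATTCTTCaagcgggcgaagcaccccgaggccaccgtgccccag
Itga5: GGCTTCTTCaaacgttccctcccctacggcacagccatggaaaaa
Itga8: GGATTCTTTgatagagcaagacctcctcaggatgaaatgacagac
Itga4: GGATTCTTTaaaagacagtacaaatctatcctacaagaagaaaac
Itga9: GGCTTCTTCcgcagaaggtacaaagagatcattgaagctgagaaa

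The shared stretch was found in all 10 transcripts, written in 5 different runs of 9 bases. From it to the end of the coding sequence there are between 13 codons (Itga1, whose tail is shown whole) and 75 codons (Itga7).

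**Figure D1:**
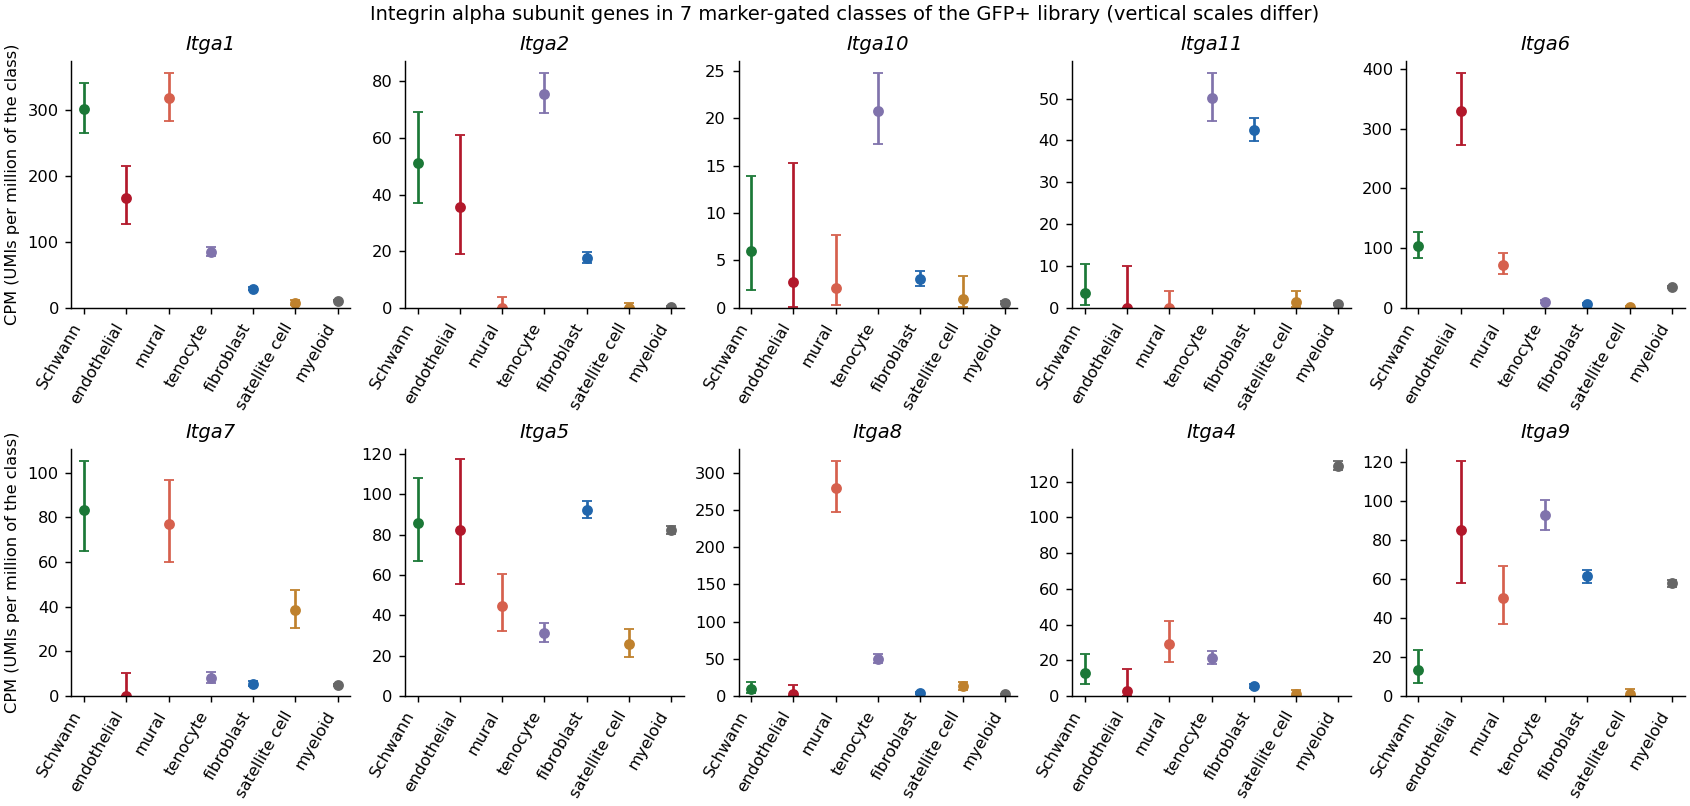
CPM of each alpha subunit gene (vertical axes from 0, scales differ between panels) in the 7 classes of the GFP+ library, with points for the pooled level of a class and bars for exact Poisson 95% intervals. Itga8 stood at 280 CPM in mural-like barcodes and Itga4 at 129 CPM in myeloid-like barcodes, each above every other class, while Itga5 lay between 25.7 and 92.3 CPM in all 7.

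Itga1, the alpha1 chain of a receptor for collagen IV and other collagens, was highest in mural-like and Schwann-like barcodes. It stood at 318 CPM (283 to 357) in mural-like and 301 CPM (265 to 341) in Schwann-like barcodes, and their log2 ratio of 0.08 (-0.17 to 0.33) did not separate them. Endothelial-like barcodes followed at 167 CPM (128 to 215) and tenocyte-like barcodes at 85.3 CPM, each below the class before it by more than counting error. Fibroblast-like barcodes held 28.9 CPM, myeloid-like barcodes 11.1 CPM and satellite cell-like barcodes 7.01 CPM, the last of these from 15 UMIs. The mural genes Acta2, Tagln, Mylk and Pdgfrb summed to 14.3 CPM in Schwann-like barcodes, 0.0883% of their mural-like level, while Itga1 stood there at 94.6% of its own. With under 5% mitochondrial UMIs and more than 500 genes, mural-like barcodes held 449 CPM of Itga1. Their log2 ratio to Schwann-like barcodes was then 0.50, above the interval of the reported ratio.

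Itga1 was spread over the Schwann-like barcodes and not confined to a few. Of the 80 barcodes, 22 held no UMI of Itga1, 15 held 1 UMI, 26 held 2 to 4 UMIs and 17 held 5 or more, and the barcode with the most gave 28 of the 253 UMIs. After thinning to 5000 UMIs per barcode, which removes differences in depth, 52.5% of Schwann-like barcodes had a UMI (41.0% to 63.8%; 72.5% unthinned, median depth 8787.5 UMIs). In resident macrophage-like barcodes the thinned share was 0.618% (1.35% unthinned, median depth 11528 UMIs).

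Within the mural class, Itga1 was present in both kinds of barcodes. The 15 pericyte-like barcodes held 499 CPM (404 to 610) and the 54 smooth muscle-like barcodes 271 CPM (234 to 313), a log2 ratio of smooth muscle-like to pericyte-like of -0.88 (-1.24 to -0.51). Every pericyte-like barcode had a UMI of Itga1.

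Itga2, the alpha2 chain of a receptor that prefers fibrillar collagen I, led in tenocyte-like barcodes, the cells that make tendon collagen. It stood at 75.6 CPM (68.8 to 82.9) there. Schwann-like barcodes came next with 51.2 CPM (37.0 to 69.0), then endothelial-like ones with 35.7 CPM (19.0 to 61.0) and fibroblast-like ones with 17.8 CPM. Tenocyte-like exceeded Schwann-like barcodes by 0.56 on the log2 scale (0.11 to 1.05), while Schwann-like and endothelial-like barcodes were not separated (0.52, -0.40 to 1.54). No UMI of Itga2 was found in 75 mural-like barcodes, where 3 UMIs would be 3.20 CPM, nor in 210 satellite cell-like barcodes, where 3 UMIs would be 1.40 CPM. The Schwann-like level was 36.5-fold the level that 3 UMIs would be in satellite cell-like barcodes. Myeloid-like barcodes held 0.354 CPM.

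Genes of tendon were nearly absent from the Schwann-like barcodes. Fmod, Comp, Chad and Cilp2 summed to 3.57 CPM in Schwann-like barcodes against 11460 CPM in tenocyte-like barcodes, or 0.0312%, while Itga2 stood at 67.7% of its tenocyte-like level. Among the 80 Schwann-like barcodes, 30 held a UMI of Itga2 and none held more than 4.

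Among the 7 classes, the remaining collagen-binding subunits were also highest in tenocyte-like barcodes. Itga10, the alpha10 chain known from cartilage, stood at 20.8 CPM (17.3 to 24.8) in tenocyte-like barcodes and at 5.95 CPM or less in each other class, with 5 UMIs in Schwann-like and 3.06 CPM in fibroblast-like barcodes, which were not separated. Itga11, the alpha11 chain of a receptor for fibrillar collagens on fibroblasts, stood at 50.1 CPM (44.6 to 56.1) in tenocyte-like and 42.6 CPM (39.8 to 45.5) in fibroblast-like barcodes, a small log2 difference of 0.24 (0.04 to 0.43). Schwann-like barcodes held 3 UMIs of Itga11, or 3.57 CPM, which is 8.39% of the fibroblast-like level beside 7.52% for the mesenchymal genes, whose members ranged from 15.5 CPM of 1088 CPM (Lum) to 683 CPM of 5010 CPM (Col1a1). Endothelial-like and mural-like barcodes held none, where 3 UMIs would be 8.23 CPM and 3.20 CPM.

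The fibroblast-like subclasses differed in their collagen-binding subunits. Of the 1348 fibroblast-like barcodes, 383 were mixed between subclass lists and 76 fell into none, and these count in the class level only. Smoc2 fibroblast-like barcodes, gated on Smoc2, Cxcl14 and Hsd11b1, held 71.2 CPM of Itga1 and 5.33 CPM of Itga2. Pi16 fibroblast-like barcodes, gated on Pi16, Dpp4 and Sema3c, held the opposite, 7.70 CPM of Itga1 and 36.5 CPM of Itga2. The log2 ratio of Smoc2 to Pi16 fibroblast-like barcodes was 3.21 (2.78 to 3.66) for Itga1 and -2.78 (-3.43 to -2.18) for Itga2. Itga11 was also higher in the Pi16 subclass, at 61.9 CPM against 37.3 CPM in the Smoc2, 36.5 CPM in the Dkk2 and 11.2 CPM in the Gdf10 fibroblast-like barcodes. The Pi16 level of Itga11 also exceeded the tenocyte-like level of 50.1 CPM, by 0.30 on the log2 scale (0.09 to 0.52). Within these 4 subclasses the Smoc2 and Dkk2 levels of Itga11 did not differ beyond counting error. The class mean of 28.9 CPM for Itga1 therefore covers subclasses from 7.70 to 71.2 CPM.

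Among myeloid-like barcodes, Itga1 marked out the cDC1-like and monocyte-like subclasses. It stood at 84.0 CPM (75.1 to 93.7) in 200 cDC1-like barcodes, gated on genes of cross-presenting dendritic cells, at 37.6 CPM in 387 monocyte-like barcodes and at 8.34 CPM in 794 Gpnmb macrophage-like barcodes. In the 2591 resident macrophage-like barcodes it stood at 1.30 CPM, so that cDC1-like barcodes exceeded them by 6.01 on the log2 scale (5.55 to 6.51). The cDC1-like level was within counting error of the tenocyte-like level (log2 ratio of tenocyte-like to cDC1-like 0.02, -0.18 to 0.23). Itga2, Itga10 and Itga11 stayed at 1.20 CPM or less in all 5 myeloid-like subclasses.

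Only 9 barcodes were T and NK-like, too few for a class of their own, but they held 20 UMIs of Itga2 in 5 barcodes and none of Itga1. Alpha2 is a familiar surface marker of mouse NK cells.

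Itga6, the alpha6 chain of laminin receptors, was led by endothelial-like barcodes at 329 CPM (273 to 394). Schwann-like barcodes were second at 104 CPM (83.0 to 128), lower by 1.67 on the log2 scale (1.26 to 2.08). Mural-like barcodes held 72.6 CPM, myeloid-like 35.1 CPM, tenocyte-like 10.6 CPM, fibroblast-like 6.25 CPM and satellite cell-like 0.934 CPM, and each step down this order was larger than counting error. The endothelial genes Pecam1, Cldn5, Egfl7 and Esam summed to 201 CPM in Schwann-like and 2529 CPM in endothelial-like barcodes. Beside the myeloid-like level, Itga6 stood at 30.1% in tenocyte-like and 17.8% in fibroblast-like barcodes, where the myeloid genes were at 8.80% and 4.28%. A UMI of Itga6 was found in 73.7% of thinned endothelial-like barcodes (56.9% to 86.6%; 84.2% unthinned, median depth 7489.5 UMIs), in 30.0% of Schwann-like (40.0% unthinned) and in 0.476% of satellite cell-like barcodes (0.952% unthinned, median depth 8915.5 UMIs). Among barcodes with at least 10000 UMIs the endothelial-like lead over Schwann-like barcodes was 0.91 on the log2 scale, from 14 endothelial-like barcodes.

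The mural-like level of Itga6 came from few barcodes. Smooth muscle-like barcodes held 15.6 CPM and pericyte-like barcodes 286 CPM (216 to 372), but 26 of the 55 pericyte-like UMIs were in 1 barcode. The 4 pericyte-like barcodes with more than 400 CPM of Itga6 each held 1876 CPM or more of the endothelial genes, and the 6 barcodes without Itga6 each held 434 CPM or less. The 5 barcodes between did not follow a single order. A pair with 113 CPM of Itga6 held 2260 and 1355 CPM of these genes, and those with 262, 154 and 51.2 CPM of Itga6 held 262, 616 and 307 CPM. Over the 15 barcodes they summed to 1150 CPM, 45.5% of their endothelial-like level, and Itga6 stood at 86.9% of its endothelial-like level. Their part in the pericyte-like Itga6 level was not tested.

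**Figure D2:**
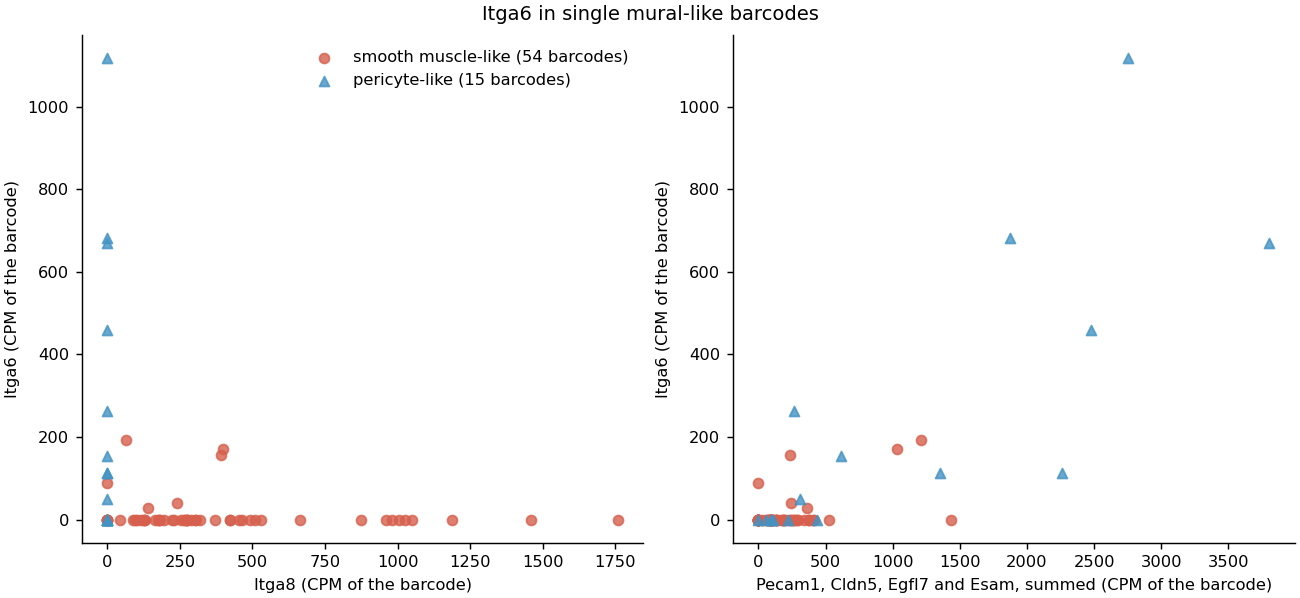
Single smooth muscle-like (54 circles) and pericyte-like (15 triangles) barcodes by CPM of Itga6 on the vertical axes, against Itga8 (left) and the summed CPM of 4 endothelial genes (right). No pericyte-like barcode held Itga8, and the 4 with the most Itga6 lie at 1876 CPM or more of the endothelial genes.

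Itga7, the alpha7 chain of the laminin receptor of muscle, had its highest levels in Schwann-like and mural-like barcodes and not in satellite cell-like ones. It stood at 83.3 CPM (65.0 to 105) in Schwann-like and 76.9 CPM (60.2 to 96.9) in mural-like barcodes, which did not differ beyond counting error (log2 ratio 0.12, -0.38 to 0.61). Their order was not stable, with a log2 ratio of -0.44 under 5% mitochondrial UMIs, -0.14 after thinning and -0.08 without the filter on genes and mitochondrial UMIs. Satellite cell-like barcodes held 38.3 CPM (30.5 to 47.6), lower than mural-like barcodes by 1.01 on the log2 scale (0.53 to 1.48). The other classes lay at 8.05 CPM or below, and 38 endothelial-like barcodes held no UMI, where 3 UMIs would be 8.23 CPM. The Schwann-like level was 10.1-fold the level of those 3 UMIs. Since Itga6 led in endothelial-like barcodes, the pair of laminin-binding subunits was not distributed alike among vascular classes.

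The satellite cell-like class was the lowest of the 7 for Itga1, Itga6, Itga5, Itga4 and Itga9, and it was the third for Itga7 and Itga8. It was not separated from the class above for Itga1, Itga5 and Itga4, nor from the class below for Itga8. The class held 2 UMIs each of Itga6, Itga4, Itga9 and Itga10, 3 UMIs of Itga11 and none of Itga2. It held 82 UMIs of Itga7, at 49.8% of the mural-like level, where the mural genes were at 4.02%. Of the 210 barcodes, 61 held a UMI of Itga7 and 15 of these held 2 to 4. Vcam1, a ligand of the alpha4 family that is known as a marker of satellite cells, was highest in this class at 379 CPM, next to 69.4 CPM in fibroblast-like barcodes.

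Macrophage subclasses differed in their laminin-binding subunits. Itga6 stood at 56.4 CPM (52.4 to 60.6) in Gpnmb macrophage-like barcodes, gated on Gpnmb, Fabp5, Trem2 and Mmp12, and at 25.9 CPM (24.1 to 27.7) in resident macrophage-like barcodes, gated on Lyve1, Folr2, Cd163, Timd4 and Fcna. Itga7 went the other way, with 8.39 CPM (7.42 to 9.45) in resident and 1.05 CPM in Gpnmb macrophage-like barcodes, a log2 ratio of Gpnmb to resident of -3.00 (-3.89 to -2.22). The mural genes stood at 14.7 CPM in resident macrophage-like barcodes, 0.0907% of the mural-like level, while Itga7 stood at 10.9% of its mural-like level. Muscle-lineage genes (Msc, Des, Myog and Musk) summed to 11.9 CPM there and to 677 CPM in satellite cell-like barcodes.

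Itga5, the alpha5 chain of the main fibronectin receptor, was present in all 7 classes, in a higher group of 4 and a lower group of 3. Fibroblast-like barcodes held 92.3 CPM (88.2 to 96.5) and Schwann-like ones 85.7 CPM (67.1 to 108). Endothelial-like barcodes stood at 82.3 CPM (55.5 to 117), as did myeloid-like ones at 82.3 CPM (80.2 to 84.3). Successive classes in that order did not differ beyond counting error, although the intervals of fibroblast-like and myeloid-like barcodes do not overlap. Mural-like barcodes held 44.9 CPM, below myeloid-like ones by 0.87 on the log2 scale (0.44 to 1.35). Tenocyte-like barcodes held 31.4 CPM and satellite cell-like 25.7 CPM, and neighbours among these 3 classes were not separated. Across the myeloid-like and fibroblast-like subclasses it ran from 42.3 CPM in cDC1-like to 111 CPM in Smoc2 and in Dkk2 fibroblast-like barcodes. When every barcode was thinned to 5000 UMIs before summing, the log2 ratio of fibroblast-like to Schwann-like barcodes was 0.59 in place of 0.11.

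Itga8, the alpha8 chain of the nephronectin receptor, was led by mural-like barcodes. Mural-like barcodes held 280 CPM (247 to 316), tenocyte-like 49.8 CPM (44.3 to 55.8), satellite cell-like 13.1 CPM, Schwann-like 9.52 CPM and the other 3 classes between 2.65 and 3.91 CPM. The step from mural-like to tenocyte-like barcodes was 2.49 on the log2 scale (2.25 to 2.74). Within the mural class the smooth muscle-like barcodes held 371 CPM (327 to 419), in 48 of 54 barcodes, and the 15 pericyte-like barcodes held no UMI. The smooth muscle-like level was 23.8-fold the level that 3 UMIs would be in the pericyte-like barcodes.

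The Itga8 result depended on the mitochondrial filter. Of the smooth muscle-like barcodes 1 of 54 had under 5% mitochondrial UMIs, with a median of 7.31%, against 14 of 15 pericyte-like barcodes. With a limit of 5% and more than 500 genes, 18 of the 75 mural-like barcodes remained, Itga8 stood at 8.97 CPM in them, and the log2 ratio of mural-like to tenocyte-like barcodes was -2.62.

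Outside the mural class, Itga8 was found in tenocyte-like barcodes and in a myeloid subclass. The mural genes stood at 3.03% of their mural-like level in tenocyte-like barcodes, where Itga8 was at 17.8%, and 157 of the 456 tenocyte-like barcodes had a UMI. Acta2 and Tagln made up most of the sum in mural-like barcodes but not in tenocyte-like ones, where Mylk stood at 217 CPM in tenocyte-like against 1419 CPM in mural-like barcodes and Pdgfrb at 87.2 against 194 CPM. In satellite cell-like barcodes the corresponding values were 4.02% and 4.67%, with Mylk at 1.40 CPM and Pdgfrb at 2.80 CPM, and the part of mural RNA in the Itga8 level was not tested. The cDC1-like barcodes held 20.5 CPM (16.2 to 25.5), in 44 of 200 barcodes, with 0.778 CPM of the mural genes, and resident macrophage-like barcodes held 0.681 CPM of Itga8. The log2 ratio of cDC1-like to resident macrophage-like barcodes was 4.91 (4.21 to 5.66). The cDC1-like barcodes thus held more of Itga1, Itga8 and Itga4 than the resident macrophage-like ones and less of Itga9, Itga7, Itga6 and Itga5.

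Itga4, the alpha4 chain that binds VCAM-1 on vessels, was led by myeloid-like barcodes. They held 129 CPM (126 to 132), 2.16 on the log2 scale above mural-like barcodes at 28.8 CPM (1.62 to 2.76). Tenocyte-like barcodes followed at 21.3 CPM, Schwann-like at 13.1 CPM, fibroblast-like at 5.54 CPM, endothelial-like at 2.74 CPM and satellite cell-like at 0.934 CPM. The fibroblast-like level was 4.29% of the myeloid-like level, beside 4.28% for the 5 myeloid genes. The mural-like level was 22.4% beside 16.9%, the tenocyte-like level 16.5% beside 8.80% and the Schwann-like level 10.2% beside 2.37%. The Schwann-like value rests on 11 UMIs in 8 of 80 barcodes. Without the 5 barcodes of each class with the most Itga4 UMIs, the log2 ratio of myeloid-like to mural-like barcodes was 3.72.

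Itga9, the alpha9 chain of a receptor for tenascin-C, was shared by mesenchymal, endothelial and myeloid barcodes and was low in Schwann-like and satellite cell-like ones. Tenocyte-like barcodes held 92.7 CPM (85.1 to 101) and endothelial-like ones 85.0 CPM (57.8 to 121). Levels were 61.4 CPM in fibroblast-like, 57.8 CPM in myeloid-like and 50.2 CPM in mural-like barcodes, and no neighbours in that order were separated. The tenocyte-like interval nevertheless lies above the fibroblast-like, myeloid-like and mural-like levels. Without the 5 barcodes of each class with the most Itga9 UMIs, the log2 ratio of tenocyte-like to endothelial-like barcodes was 1.25 in place of 0.12. Schwann-like barcodes held 13.1 CPM (6.54 to 23.4), lower than mural-like by 1.94 on the log2 scale (0.97 to 3.04), and satellite cell-like barcodes held 0.934 CPM. The Schwann-like level was 21.3% of the fibroblast-like level beside 7.52% for the mesenchymal genes, and the mural-like level 86.8% of the myeloid-like level beside 16.9% for the myeloid genes. Of the 31 endothelial-like UMIs, 15 were in the 7 barcodes with a UMI of Mmrn1, at 229 CPM (128 to 378), against 53.5 CPM (30.6 to 86.9) in the other 31 barcodes. This split was made after the values were seen. Alpha9 is known from the valves of lymphatic vessels.

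The members of the alpha4 family had different leading subclasses among myeloid-like barcodes, although both were higher in resident than in Gpnmb macrophage-like ones. Itga4 stood at 257 CPM (242 to 273) in monocyte-like and 247 CPM (218 to 278) in Cd209a dendritic-like barcodes, which were not separated, at 204 CPM in cDC1-like, 105 CPM in resident macrophage-like and 93.3 CPM in Gpnmb macrophage-like barcodes. Itga9 stood at 78.2 CPM (75.2 to 81.3) in resident macrophage-like and 37.9 CPM (34.7 to 41.4) in Gpnmb macrophage-like barcodes, and at 6.44 CPM or less in the other 3 subclasses. The log2 ratio of monocyte-like to resident macrophage-like barcodes was 1.29 (1.19 to 1.39) for Itga4 and -4.11 (-4.85 to -3.47) for Itga9. After thinning, 61.5% of monocyte-like barcodes had a UMI of Itga4 (78.6% unthinned, median depth 10409 UMIs) against 37.7% of resident macrophage-like ones (61.7% unthinned, median depth 11528 UMIs), and 1.81% had a UMI of Itga9 (3.88% unthinned) against 29.3% (48.6% unthinned). In satellite cell-like barcodes the thinned share for Itga4 was 0.476% (0.952% unthinned, median depth 8915.5 UMIs). The 7 mature dendritic-like barcodes were too few to be ranked. They held 72 UMIs of the alpha4 family, or 609 CPM (477 to 767), against 262 CPM (246 to 278) in monocyte-like barcodes.

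Read against all genes, the lean of the subunits between these subclasses was as follows. Of 6 subunits with enough UMIs, Itga1 and Itga4 were at least 2-fold higher in monocyte-like than in resident macrophage-like barcodes, where 7.4% of 12398 genes were. Itga6, Itga7 and Itga9 were at least 2-fold lower, where 29.2% of genes were. Itga5 lay between, at a log2 ratio of 0.59 (0.43 to 0.74).

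**Figure D3:**
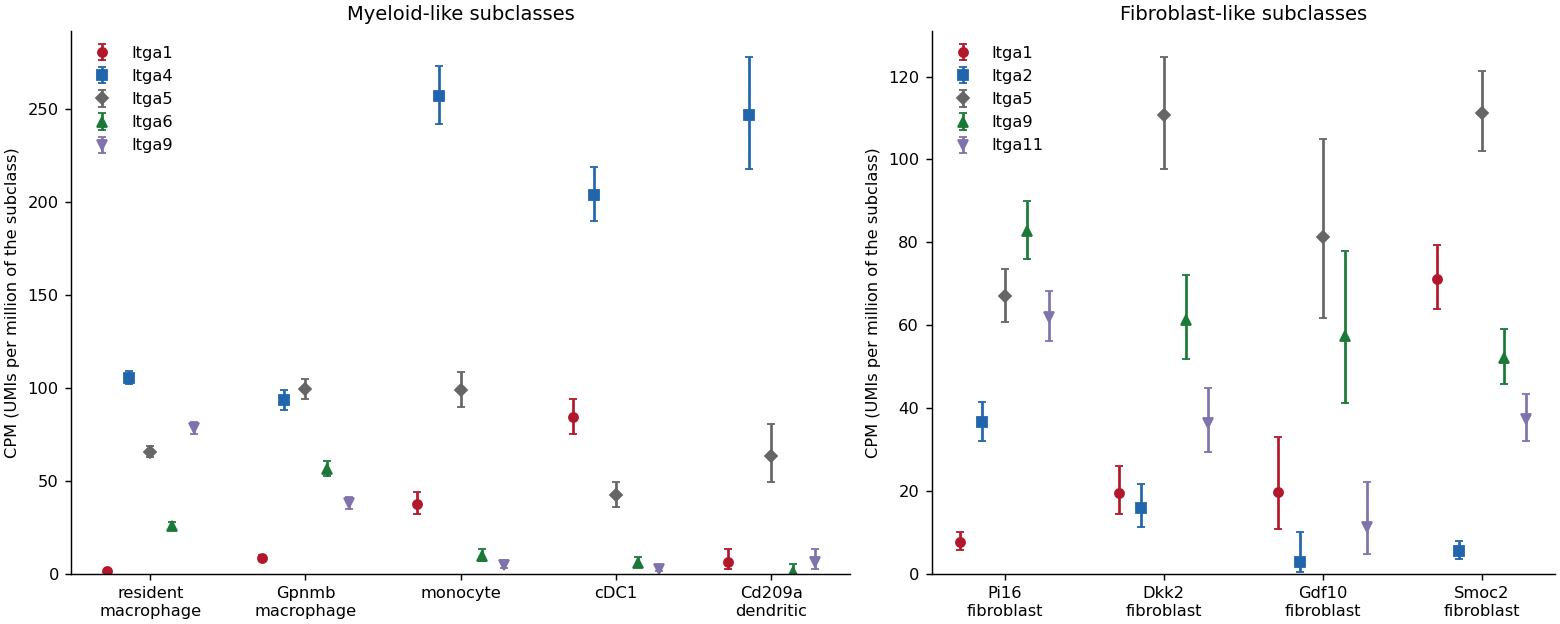
CPM (axes from 0) of 5 subunits in the myeloid-like subclasses (left) and of 5 in the fibroblast-like subclasses (right), with exact Poisson 95% intervals. Itga4 at 257 CPM in monocyte-like and Itga9 at 78.2 CPM in resident macrophage-like barcodes are the highest levels of these genes at the left, and at the right Itga1 is highest in the Smoc2 and Itga2 in the Pi16 subclass.

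Across the 7 classes, 4 of the 10 genes (Itga10, Itga6, Itga8 and Itga4) had a highest class at least 2-fold above every other class. The same held for 27.6% of 16208 genes with at least 50 UMIs. Among the 4, tenocyte-like, endothelial-like, mural-like and myeloid-like barcodes each led 1 gene, and Schwann-like barcodes led none by that margin. Among barcodes with at least 10000 UMIs the count was 2, Itga8 and Itga4. Under 5% mitochondrial UMIs and with more than 500 genes it was 3, without Itga6, and the mural-like class no longer led Itga8.

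The study is about Schwann cells, so the groups were also set against the fibroblast-like class, the most numerous mesenchymal class of the sort. Summed over their members, the laminin-binding subunits stood at 187 CPM in Schwann-like and 11.8 CPM in fibroblast-like barcodes, a log2 ratio of 3.99 (3.69 to 4.28). The collagen-binding subunits stood at 362 and 92.3 CPM (1.97, 1.79 to 2.15), the RGD-binding pair of Itga5 and Itga8, without Itgav, at 95.2 and 96.2 CPM (-0.01, -0.36 to 0.31), and the alpha4 family at 26.2 and 67.0 CPM (-1.35, -2.03 to -0.75). The collagen-binding sum hides opposite members, since Itga1 was higher by 3.38 (3.17 to 3.60) and Itga11 lower by 3.58 (2.02 to 5.86) on the log2 scale. Likewise in the alpha4 family, Itga4 stood at 1.24 (0.20 to 2.13) and Itga9 at -2.23 (-3.24 to -1.39).

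By single genes, 6 of 10 subunits (Itga1, Itga2, Itga6, Itga7, Itga8 and Itga4) were at least 2-fold higher in Schwann-like than in fibroblast-like barcodes, where 19.9% of 12498 genes were. Itga8 and Itga4 rest on 8 and 11 Schwann-like UMIs, and their intervals reach below 2-fold. Itga11 and Itga9 were at least 2-fold lower, where 20.3% of genes were. Itga10, with 5 Schwann-like UMIs, and Itga5 were not separated from 0.

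**Figure D4:**
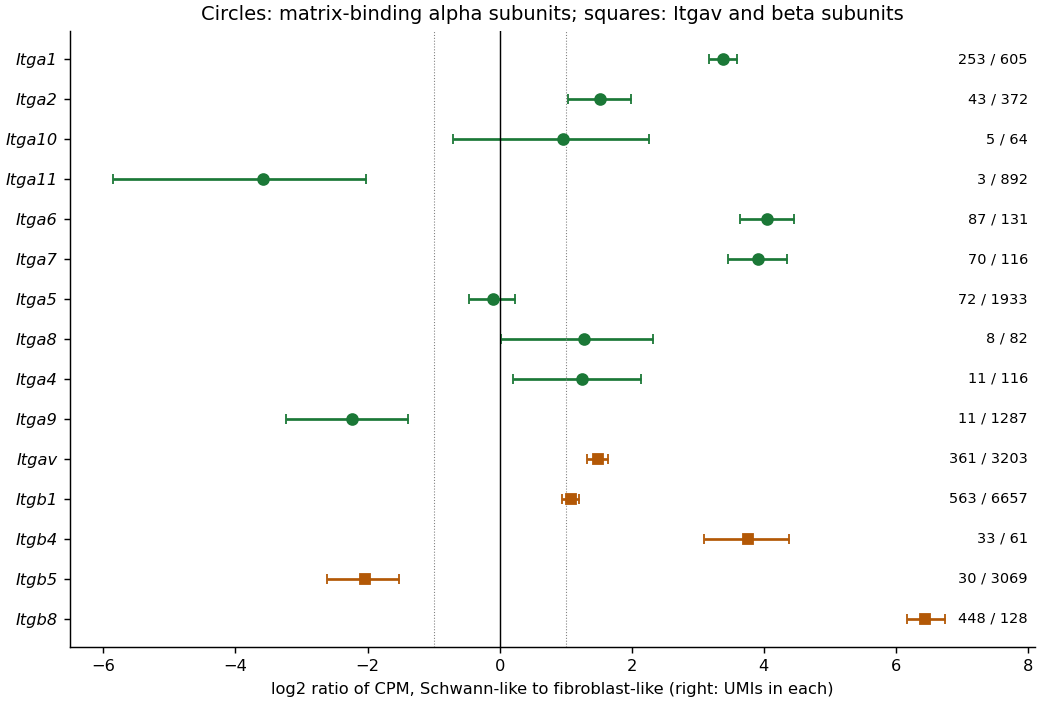
Log2 ratio of CPM in Schwann-like to fibroblast-like barcodes (horizontal axis) for the 10 alpha subunits (circles), Itgav and 4 beta subunits (squares), with exact conditional 95% intervals, UMI counts of both classes at the right, and dotted lines at 2-fold. Itga1, Itga2, Itga6, Itga7, Itgav, Itgb4 and Itgb8 lie right of the upper 2-fold line with their whole intervals, and Itga9, Itga11 and Itgb5 lie left of the lower one.

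The beta subunits that can pair with these genes were measured in the same barcodes. Itgb1, the partner common to the 10 genes, was present in every class, with 809 CPM in mural-like, 670 CPM in Schwann-like, 494 CPM in endothelial-like, 437 CPM in tenocyte-like, 392 CPM in satellite cell-like, 318 CPM in fibroblast-like and 286 CPM in myeloid-like barcodes. Of the 80 Schwann-like barcodes 77 held a UMI of Itgb1, and its median was 670 CPM. Its order resembled that of Itga1 at the top, where mural-like and Schwann-like barcodes came first for both genes. Itgb4, the partner of alpha6 in hemidesmosomes and in Schwann cells, stood at 63.1 CPM in endothelial-like and 39.3 CPM in Schwann-like barcodes, which were not separated (log2 ratio of Schwann-like to endothelial-like -0.68, -1.49 to 0.15), and at 5.34 CPM or less in the other classes. Itgb7, the other partner of alpha4, stood at 33.7 CPM in myeloid-like barcodes, with 247 CPM in Cd209a dendritic-like, 218 CPM in cDC1-like, 77.5 CPM in monocyte-like and 5.11 CPM in resident macrophage-like barcodes.

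The counts of list genes that follow stand beside the 27.6% of all genes with a leading class by the same 2-fold margin, and nothing particular to a list is read from them. Among the 8 beta subunits 4 had a leading class, Itgb8 among them. Itgb8 stood at 533 CPM (485 to 585) in Schwann-like barcodes, 13.4 CPM in tenocyte-like and 6.54 CPM or less in the other classes. Its partner Itgav, an RGD-binding alpha subunit outside the 10 genes, was also highest in Schwann-like barcodes, at 430 CPM against 175 CPM in myeloid-like ones. Of the 8 other alpha subunits, 6 had a leading class, and these were endothelial-like for Itga3 (32.9 CPM), Schwann-like for Itgav, and myeloid-like for Itgam (198 CPM), Itgal (14.2 CPM), Itgax (14.1 CPM) and Itgae (7.50 CPM). Itgb2, the partner of the leukocyte alpha subunits, was led by myeloid-like barcodes at 141 CPM. Itgb6 was led by fibroblast-like barcodes at 20.5 CPM.

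The ligands showed which classes hold the RNA of the matrix that these receptors bind. Of 7 collagen genes 3 had a leading class, with 11558 CPM of Col1a1 and 11590 CPM of Col1a2 in tenocyte-like and 9245 CPM of Col3a1 in fibroblast-like barcodes. The basement membrane collagen Col4a1 was highest in endothelial-like barcodes at 1064 CPM. Of 6 laminin genes 2 had a leading class. Lama5 stood at 131 CPM in mural-like and 28.6 CPM in Schwann-like barcodes, and Lamc1 stood at 373 CPM in fibroblast-like barcodes. Lama2, the laminin chain of muscle and nerve basal lamina, was highest in fibroblast-like barcodes at 1047 CPM, and Schwann-like barcodes held 223 CPM.

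Of 5 ligand genes of the RGD-binding group with enough UMIs 4 had a leading class, and of 4 of the alpha4 family 2 had. Tnc, which encodes tenascin-C and is in both lists, stood at 2805 CPM in Schwann-like barcodes, against 422 CPM in tenocyte-like and 90.8 CPM or less in the other classes, whereas its receptor chain Itga9 was at 13.1 CPM in the Schwann-like barcodes. Fn1, the gene of fibronectin, was highest in fibroblast-like barcodes at 2423 CPM and stood at 83.3 CPM in Schwann-like ones. Vtn was led by mural-like barcodes at 152 CPM, Fbn1 by fibroblast-like barcodes at 1709 CPM and Spp1 by myeloid-like barcodes at 357 CPM. Npnt, the nephronectin gene, had 46 UMIs in all, too few for the list count, and stood at 17.1 CPM in mural-like barcodes, the class with the most Itga8.

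Of 12 adaptor genes that link integrin tails to actin, 11 had enough UMIs and 3 had a leading class. Fermt3, the kindlin of blood cells, stood at 134 CPM in myeloid-like barcodes, and Fermt2, the kindlin of other cells, at 1.56 CPM there and between 159 and 427 CPM in the other 6 classes. Tln2 was led by satellite cell-like barcodes at 461 CPM and Parvb by endothelial-like barcodes at 156 CPM.

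Barcodes of the classes also differed in how many of the 10 subunits they carried. At 5000 UMIs per barcode the mean number of subunits with a UMI was 2.17 in mural-like, 2.03 in endothelial-like, 1.76 in Schwann-like, 1.66 in tenocyte-like, 1.16 in myeloid-like, 1.03 in fibroblast-like and 0.381 in satellite cell-like barcodes. In Schwann-like barcodes 8.75% held none of the 10 and 60.0% held 2 or more. Itga1 and Itga2 were found together in 14 of the 80 thinned Schwann-like barcodes (17.5%, 9.91% to 27.6%), where the product of their shares was 11.2%. Itga1 and Itga8 were found together in 30 of 54 smooth muscle-like barcodes (55.6%, 41.4% to 69.1%), where the product was 53.5%. In both cases the product lay inside the interval.

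**Figure D5:**
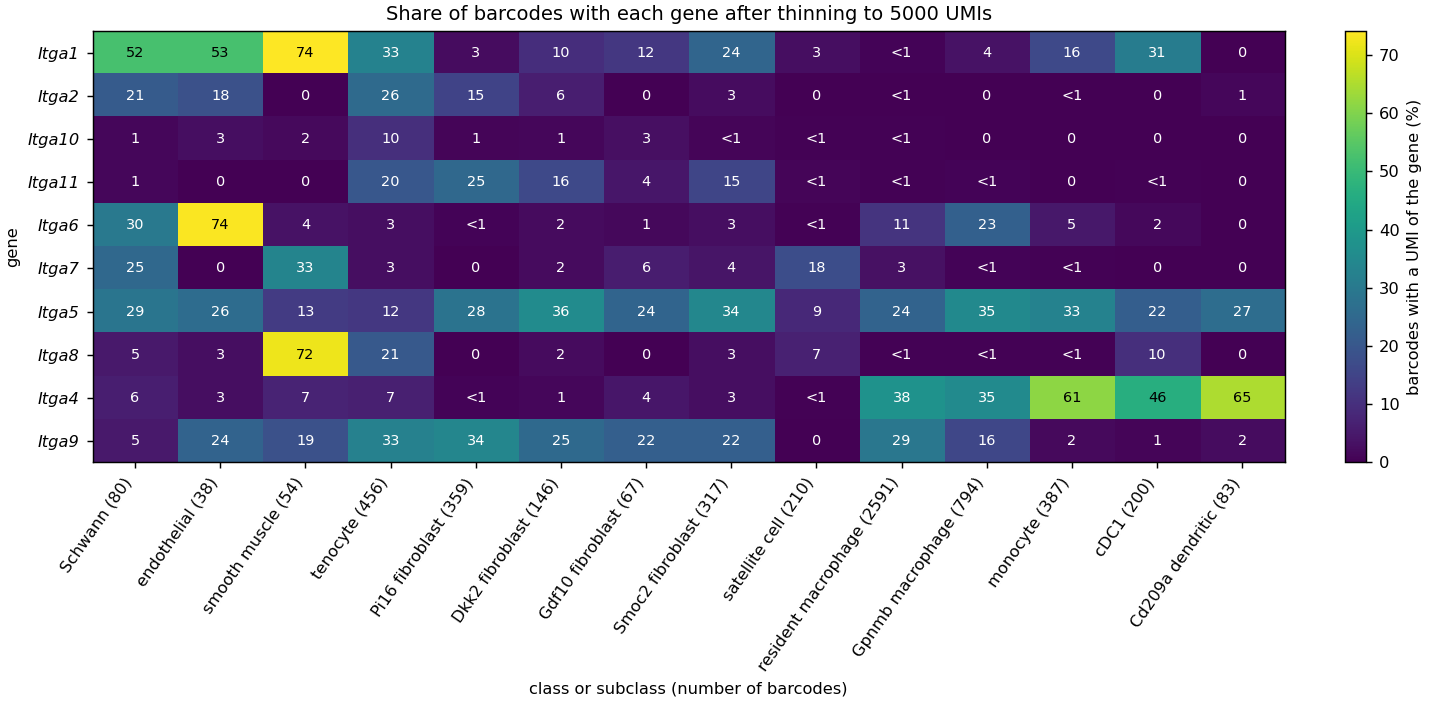
Share of barcodes (%) with a UMI of each subunit after thinning to 5000 UMIs, for 14 classes and subclasses with at least 20 barcodes (numbers of barcodes in brackets), with darker tiles for lower shares. Itga6 in endothelial-like barcodes (73.7%) and Itga1 (74.1%) and Itga8 (72.2%) in smooth muscle-like barcodes are the highest shares.

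Genes with the most similar pattern were found over the same 14 classes and subclasses, which share 1 library, from 10697 genes with at least 500 UMIs, by Pearson's r of log2(CPM + 1), as a description only. Itga4 was most like Lrmp (r = 0.97), Rgs18 and Mob3b, and Itga11 most like Bdh2 (0.97), Olfml1 and Pamr1. Itga7 was nearest to Gamt (0.94), Pmpcb and Rabl6, Itga6 to Zdhhc12 (0.93), Nus1 and Ap3m1, and Itga2 to Paxx (0.92), Ccdc186 and Ptn. For Itga9 the nearest genes were Pccb (0.91), Tmem140 and Slc23a3, for Itga8 Tpm1 (0.90), Med14 and Cisd1, and for Itga1 Arpc5l (0.89), Inf2 and Dock5. Itga5 had the weakest nearest gene, Erlin2 (0.84), followed by Pxn (0.81), which encodes the adhesion adaptor paxillin, and Diaph2 (0.80). Itga10 had under 500 UMIs and was not ranked.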

How the data were processed

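Single GFP+ cells were sequenced as 1 10x Genomics 3′ library. The authors deposited raw UMI counts per gene and barcode, made with Cell Ranger (8.0.1 in the file header, 7.1.0 in the submitters' processing notes, which name build mm10, while the methods name GRCm38 and GRCm39). Default settings of recent versions also count intronic reads, which adds counts to long genes. The shallowest deposited barcode held 1058 UMIs.

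From these counts, barcodes with at least 5000 UMIs, more than 200 genes and under 10% mitochondrial UMIs were kept. A barcode joined a class with at least 5 UMIs over at least 2 of its marker genes when every other list summed to at most 0.5 of that. Subclasses were gated likewise. As mixed, 383 fibroblast-like and 814 myeloid-like barcodes were left out of the subclasses. A further 76 fibroblast-like and 1105 myeloid-like barcodes fell into no subclass. No doublet caller was run: barcodes with mixed lists were left out, and barcodes over 30000 UMIs were removed as an alternative. Classes under 20 barcodes stayed out of the orders, counts and similarities. A few values of the pericyte-like (15), T and NK-like (9) and mature dendritic-like (7) barcodes are given by themselves. UMIs were summed per class and divided by the class total. Intervals are exact Poisson (levels), exact conditional binomial (ratios) and Clopper-Pearson (shares). UMIs were thinned to 5000 per barcode with a fixed seed. A floor is 3 UMIs of a class, and a fold against it leaves out counting error. With 1 library no test was made. The steps were tested on simulated data. Scripts ran in Python 3.11.15 with scipy 1.17.1, numpy 2.4.6, matplotlib 3.10.9 and pandas 2.3.3.

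The 10 genes, the classes, the lists and the alternatives were chosen with earlier results of these data known. Named were the 10 genes, Itgb1, list genes that lead a class by 2-fold, the ligands of each group, and the 3 genes most like each gene with at least 500 UMIs. Itgb4, Itgb5 and Fermt2, and the genes used to check names, were chosen after the values were seen. Of the GFP- library, barcodes alone were used.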

Additional observations from a re-analysis of the deposited data

How the results depend on the processing

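The group ratios, the number of subunits with a leading class, and each subunit's highest level and ratio of first to second class were computed under 10 other settings. Shares were computed under 2, and the ratios between subclasses and of single genes were not recomputed. The group ratios of Schwann-like to fibroblast-like barcodes kept their direction under all of them except that of the RGD-binding subunits, which lay between -0.38 and 0.02. After thinning to 5000 UMIs the log2 ratio was -0.38 for the RGD-binding and 3.51 for the laminin-binding subunits. Without the 5 barcodes of each class with the most UMIs of the group it was -2.31 for the alpha4 family and 1.67 for the collagen-binding subunits. With at least 10000 UMIs per barcode, the number of subunits with a leading class was 2 in place of 4, with 14 endothelial-like barcodes left, under the minimum of 20. With under 5% mitochondrial UMIs and more than 500 genes the log2 ratio of Itga8 in mural-like to tenocyte-like barcodes was -2.62. Of 99 values of the ratio of a subunit's first to second class, 87 stayed inside the interval of the reported ratio, 11 moved beyond it and 1, that of Itga8, changed sign from an interval that excluded 0. Ratios whose interval held 0 also changed sign, that of Itga7 under 3 settings, that of Itga9 under 2 and that of Itga1 under 1. The ratio of Itga10 could not be computed without the top 5 barcodes, since Schwann-like barcodes then held none. Shares of barcodes with a UMI moved with the depth of thinning in 19 of 20 cases. No paired analysis was possible because the comparisons lie within 1 library.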
